A study of Mus musculus with 5 samples.

Results

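The Hsd3b family was followed across induced hepatic progenitors, fetal liver progenitors and a neural progenitor line of the mouse. The members are all probes, other than control probes, that the array files name Hsd3b1 to Hsd3b7 or whose transcript accession carries one of these symbols today. They comprise 7 of 28785 genes and 9 of 41174 probes, with 3 probes for Hsd3b2 and 1 for each of the others. The family was chosen by the measured levels of Hsd3b4 and Hsd3b5 in these same arrays, which were high in the induced cells alone, so levels of the family in the induced cells against the other lines are given as a description, with no test. Probes of such similar genes may bind the transcript of more than 1 of them, and this was not tested.

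RNA of 5 cell lines was hybridised, each to 1 Agilent array with 1 dye, using 0.25 µg of RNA. Induced hepatic progenitor cells (iHPC, 2 arrays) were made from a neural line by infection with pMXs retroviruses that carry no drug marker, and encode 9 transcription factors (iHPC 9F) or 10 (iHPC 10F). G418 was given 3 weeks after infection, for 1 week. Hepatic progenitor cells (HPC, 2 arrays) are the lines HB1, from fetal liver of C57BL6J mice, and HNG2, from fetal liver of STOCK Tg(Nanog-GFP, Puro)1 Yam mice, both at E13.5. Neural progenitor cells (NPC, 1 array) are the parental line NSBAg2, which derives from the embryonic stem cell line BAg73C2. NSBAg2, and so the iHPC, carry beta-geo in the Afp gene, so that G418 selects cells with an active Afp gene. The labels name no factor and no repeat culture of a line, so that p-values rest on how far the 2 iHPC lines, and the 2 HPC lines, lay from one another.

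Enzymes of this family oxidise the 3-beta-hydroxyl group of a steroid to a ketone. In mice, Hsd3b1 and Hsd3b6 encode dehydrogenase/isomerases that turn precursors into active hormone classes in adrenal gland, gonads or placental tissue, and Hsd3b2 and Hsd3b3 are known from kidney and liver. Hsd3b4, of the kidney, and Hsd3b5, of the adult male liver, encode enzymes that act mainly as reductases of 3-ketosteroids. Hsd3b7 encodes the enzyme of bile acid synthesis that acts on sterols hydroxylated at the neighbouring ring, and it makes no steroid hormone. The first 6 lie side by side on chromosome 3 and Hsd3b7 lies alone on chromosome 7.

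A level is the log2 of a signal over the 75th percentile of the same array, so that 0 is that percentile, and each difference is on this log2 scale unless a fold is written. A probe counted as measured on an array where all its spots were well above background by the scanner software. Between 58.9% and 65.6% of the spots that were not controls met this on each array, and 0 were saturated. Of 10 hepatocyte markers, 9 and 9 were measured in iHPC, 9 and 8 in HPC and 2 in NPC. Of 8 neural progenitor markers, 5 and 4 were measured in iHPC, 4 and 5 in HPC and 6 in NPC, so that count separated the lines little. Sox2, a factor of neural stem cells, was at -3.57 and -4.41 in iHPC, at -8.07 and -8.60 in HPC, where it was not measured, and at 0.86 in NPC. Afp, the selected gene, was at 6.40 and 6.82 in iHPC, at 5.98 and 2.98 in HPC and at -6.89 in NPC, where it was not measured.

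All 6 members with a measured probe in iHPC were measured on both iHPC arrays. Of the 9 probes, 8 and 8 were measured in iHPC, 3 (HB1) and 2 (HNG2) in HPC, and 2 in NPC. In HPC and NPC the measured genes were Hsd3b4 and Hsd3b7, with Hsd3b2 added in HB1 by 1 weak probe. Thus 6 of the 7 members passed the filter for testing, which asked that some group had the probe measured on all its arrays, and Hsd3b1, Hsd3b2, Hsd3b5 and Hsd3b6 passed it only through iHPC. Being measured on both iHPC arrays and on no other array held for 4 members by the probe that stands for the gene, and for 0.777% of the 19303 genes tested, a share from which nothing is read because the family was chosen for it.

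**Figure D1:**
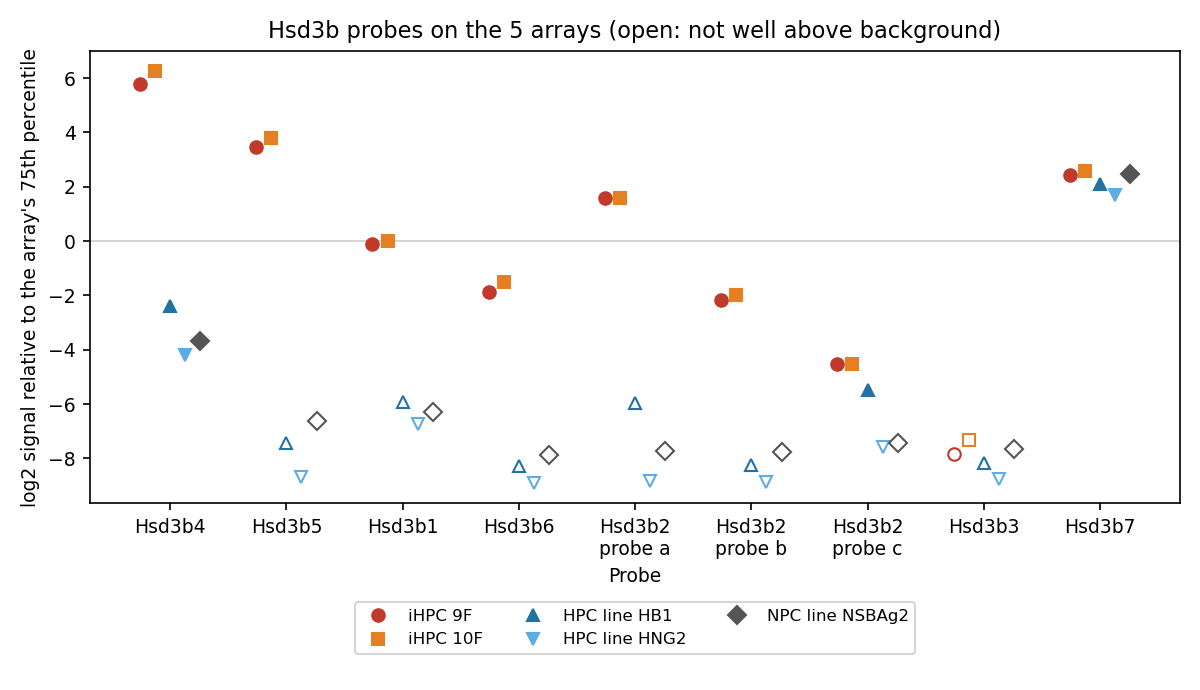
Level of each Hsd3b probe on each of the 5 arrays (y axis, log2 signal relative to the array's 75th percentile; x axis, probe; 1 point per array, coloured by line, open where the probe was not well above background; Hsd3b2 probes a, b and c in the order of the text). The chromosome 3 members apart from Hsd3b3 sit high on the iHPC arrays and low on the HPC and NPC arrays, while Hsd3b7 lies between 1.71 and 2.58 on all 5.

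The reductase genes come first. Hsd3b4 was probed at chrUn_random:1163191-1163250 on the plus strand of the array design's build mm7, where this stretch had no chromosome. Its level was 5.80 (9F) and 6.25 (10F) in iHPC, -2.38 (HB1) and -4.21 (HNG2) in HPC, and -3.66 in NPC. It was measured on all 5 arrays, and both iHPC arrays lay far above the 3 others, while NPC lay between the HPC lines. iHPC averaged 6.02 ± 0.32 and HPC -3.29 ± 1.29 (SD, n = 2 each), a difference of 9.32 or 638-fold, and against NPC the difference was 9.68 or 822-fold. Both are ratios of measured signals, since no group was at background. In bulk RNA, fewer cells of a type and less RNA per cell cannot be told apart.

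Hsd3b5 was probed at chr3:98414360-98414419 on the minus strand of mm7. Its level was 3.48 and 3.79 in iHPC, -7.44 and -8.67 in HPC and -6.63 in NPC, and it was measured in iHPC alone. For a gene that no array of a group measured, the fold is a bound: the mean of the bright group is set against, for each array of the dim group, the higher of the probe's own level and the lowest level well above background there (-5.99 and -6.62 in HPC, -5.59 in NPC). By that bound Hsd3b5 was at least 985-fold higher in iHPC than in HPC and at least 601-fold higher than in NPC. Each bound given here holds for the main processing only, and another background correction, given below, made the differences smaller. The gap between the lower iHPC array and the highest other array was 10.11, rank 1 of 19303 genes. Hsd3b4 had a gap of 8.18 (rank 5), and both ranks only describe how the family was picked.

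The promoters of 4 members are shown because they bear the motifs described next: Hsd3b4 and Hsd3b5 as the genes that led the choice, Hsd3b3 as the close relative of Hsd3b5 whose probe stayed at background, and Hsd3b6 as the member that shares a motif with each of Hsd3b4 and Hsd3b5. Each runs from 250 bases before the start of the transcript to 50 after it, as RefSeq gives it for assembly GRCm38.p6, 5′ to 3′ on the strand of the gene, and Hsd3b4 and Hsd3b3 have a second annotated start that is not shown. Capitals mark matches, on either strand, to the letters searched. The letters GTTAAT, known from promoters of liver genes, were searched as they stand, and the nuclear receptor HNF4 by the core CAAAGT. Forkhead factors of the FOXA group were searched by the core TGTTTA, and the growth hormone signal factor STAT5 by TTCNNNGAA. The letters for NR5A receptors, which act in steroid-making cells, were AAGGTCA, and those for the common promoter element known as the TATA box were TATAAA.
Hsd3b4 promoter, chr3:98510518-98510817, minus strand: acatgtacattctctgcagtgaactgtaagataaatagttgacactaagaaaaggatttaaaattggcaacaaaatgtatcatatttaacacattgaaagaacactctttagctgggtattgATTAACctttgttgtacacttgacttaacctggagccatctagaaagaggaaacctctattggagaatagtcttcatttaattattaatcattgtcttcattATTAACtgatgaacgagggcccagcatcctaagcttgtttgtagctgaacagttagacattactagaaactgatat
Hsd3b5 promoter, chr3:98645485-98645784, minus strand: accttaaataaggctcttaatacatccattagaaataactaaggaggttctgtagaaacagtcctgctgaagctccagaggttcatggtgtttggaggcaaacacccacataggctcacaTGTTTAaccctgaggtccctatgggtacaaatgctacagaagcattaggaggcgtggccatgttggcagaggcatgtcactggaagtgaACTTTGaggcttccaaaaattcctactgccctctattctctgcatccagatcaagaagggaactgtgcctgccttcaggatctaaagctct
Hsd3b3 promoter, chr3:98763079-98763378, minus strand: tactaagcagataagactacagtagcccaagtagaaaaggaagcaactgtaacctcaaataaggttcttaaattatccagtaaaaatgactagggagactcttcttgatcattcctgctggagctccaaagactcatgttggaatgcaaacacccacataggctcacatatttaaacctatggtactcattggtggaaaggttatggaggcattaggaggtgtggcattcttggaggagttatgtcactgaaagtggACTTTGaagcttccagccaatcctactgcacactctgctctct
Hsd3b6 promoter, chr3:98814394-98814693, minus strand: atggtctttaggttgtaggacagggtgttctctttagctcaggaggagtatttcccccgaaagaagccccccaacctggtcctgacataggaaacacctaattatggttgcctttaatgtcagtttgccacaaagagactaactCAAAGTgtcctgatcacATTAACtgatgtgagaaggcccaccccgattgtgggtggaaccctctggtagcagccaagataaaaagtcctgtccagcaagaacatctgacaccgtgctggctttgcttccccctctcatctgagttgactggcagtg

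In the Hsd3b4 window, GTTAAT matches began at positions -128 and -26 from the transcript start. Hsd3b6 had 1 GTTAAT match at -89 and 1 HNF4 core at -106. Hsd3b5 had a FOXA core at -130 and an HNF4 core at -41, and Hsd3b3 an HNF4 core at 7. Matches for the promoters not shown were a STAT5 match (-122) and a FOXA core (-26) for Hsd3b1, a STAT5 match (-21) for Hsd3b7 and no match in the window of Hsd3b2. None of these matches overlapped another, while the second start of Hsd3b4 had a TATA box read on both strands, at 26 and 28, where the matches overlap. Among all 32851 promoters, most of them of the same length as these windows, 7.1% held GTTAAT at least once on either strand. Counted in the same way, 14.4% held the HNF4 core, 13.4% the FOXA core and 8.3% the STAT5 letters. The letters of NR5A were held by 4.7% and the TATA box by 13.6%, so matches of this kind are common. Hsd3b5 and Hsd3b3 were identical at 75.8% of 252 aligned bases, and Hsd3b5 and Hsd3b2 at 58.4% of 305. Of this first pair the Hsd3b5 probe was measured in iHPC and the Hsd3b3 probe on no array.

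Next come the dehydrogenase/isomerase genes. Hsd3b1, the form of adrenal gland and gonads, was probed at chr3:98647842-98647901 on the minus strand of mm7. Its level was -0.09 and -0.01 in iHPC, -5.92 and -6.73 in HPC and -6.28 in NPC. It was measured in iHPC alone, and both iHPC arrays lay above the 3 others, at least 74.6-fold against HPC and at least 46.6-fold against NPC. Hsd3b6, known from the testis and from the zona glomerulosa of the adrenal, was probed at chr3:98601948-98602007 on the minus strand. Its level was -1.87 and -1.51 in iHPC, -8.27 and -8.90 in HPC and -7.88 in NPC, with the iHPC arrays again above and the others at background. The bounds for Hsd3b6 were at least 24.6-fold against HPC and at least 15.0-fold against NPC. The gap was 5.83 for Hsd3b1 (rank 24) and 6.00 for Hsd3b6 (rank 23).

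Hsd3b2 had 3 probes, all on the minus strand of mm7, which all were higher in iHPC. The probe at chr3:98506611-98506670, which stands for the gene because its mean was the highest, was at 1.58 and 1.58 in iHPC, -5.96 and -8.83 in HPC and -7.73 in NPC. It was measured in iHPC alone, at least 234-fold above HPC and at least 144-fold above NPC. The probe at chr3:98507615-98507674 was at -2.18 and -1.99 in iHPC, -8.24 and -8.85 in HPC and -7.78 in NPC, with bounds of 18.6-fold against HPC and 11.4-fold against NPC.

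The probe of Hsd3b2 at chr3:98505782-98505841 was at -4.54 and -4.53 in iHPC, -5.49 and -7.57 in HPC and -7.44 in NPC. There HB1 was measured as well, and the mean difference between iHPC and HPC was 2.0 (SD in HPC 1.47). For the first probe no HPC array was measured and only the bound of 234-fold can be set beside it. Against NPC this probe was at least 2.09-fold higher. On each of the 3 probes the iHPC arrays did not overlap the others.

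Hsd3b3 was the exception on chromosome 3. Its probe at chr3:98537796-98537855 on the minus strand of mm7 was at -7.83 and -7.32 in iHPC, -8.18 and -8.75 in HPC and -7.66 in NPC, measured on 0 of 5 arrays and with iHPC and NPC overlapping. A further probe, 9030618K22Rik, which RefSeq lists as a synonym of Hsd3b3 but which lies outside the rule for members, was at -7.73 and -7.24 in iHPC, -8.14 and -8.68 in HPC and -7.55 in NPC, and was likewise measured on no array. LOC673307, a predicted gene that the array files describe as like the type 4 enzyme, also lies outside the rule, on the same unplaced stretch as Hsd3b4. It was at -2.0 and -1.36 in iHPC, -5.23 and -6.36 in HPC and -6.27 in NPC, so that iHPC lay above the others as for Hsd3b4. Of the others only HB1 measured it. Whether it binds Hsd3b4 transcripts was not tested, and the RefSeq gene next to Hsd3b4, Gm10681, which carries Hsd3b4 as a synonym, had no probe.

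Hsd3b7 stood apart from the rest of the family. It was probed at chr7:123900149-123900208 on the plus strand of mm7 and measured on all 5 arrays, at 2.44 and 2.58 in iHPC, 2.10 and 1.71 in HPC and 2.46 in NPC. The iHPC arrays bracketed NPC, and the HPC lines were the lowest. The difference between iHPC and HPC was 0.60 and between iHPC and NPC 0.05, which is within the spread of the iHPC arrays (SD 0.10). The comparison of HPC with NPC is the one that the choice of the family did not use, and the difference of -0.55 did not pass (limma; SE 0.29, 95% confidence interval -1.39 to 0.29, adjusted p = 0.261), where 15.7% of 19303 genes were called, 6.68% higher in HPC and 8.98% lower. Without HB1, where 1 HPC array was left and the iHPC pair alone set the spread, the difference was -0.74. Over the alternatives the difference ran from -0.74 to -0.27. No other member can be set against NPC in the same way: Hsd3b1, Hsd3b2, Hsd3b5 and Hsd3b6 were at background in both groups on the probes that stand for them, Hsd3b3 was not tested, and for Hsd3b4 the levels in HPC and NPC took part in the choice.

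Over the family, both iHPC arrays lay above the 3 other arrays for 5 of the 6 members that passed the filter, where 14.7% of the 19303 genes tested did so. The gap was at least 4, or 16-fold, for the same 5 members, and for 0.43% of all genes. The choice of the family used these contrasts, so nothing is read from either share. The member nearest to that limit from above was Hsd3b1, with a gap of 5.83, and the member below it was Hsd3b7, with a gap of -0.02.

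**Figure D2:**
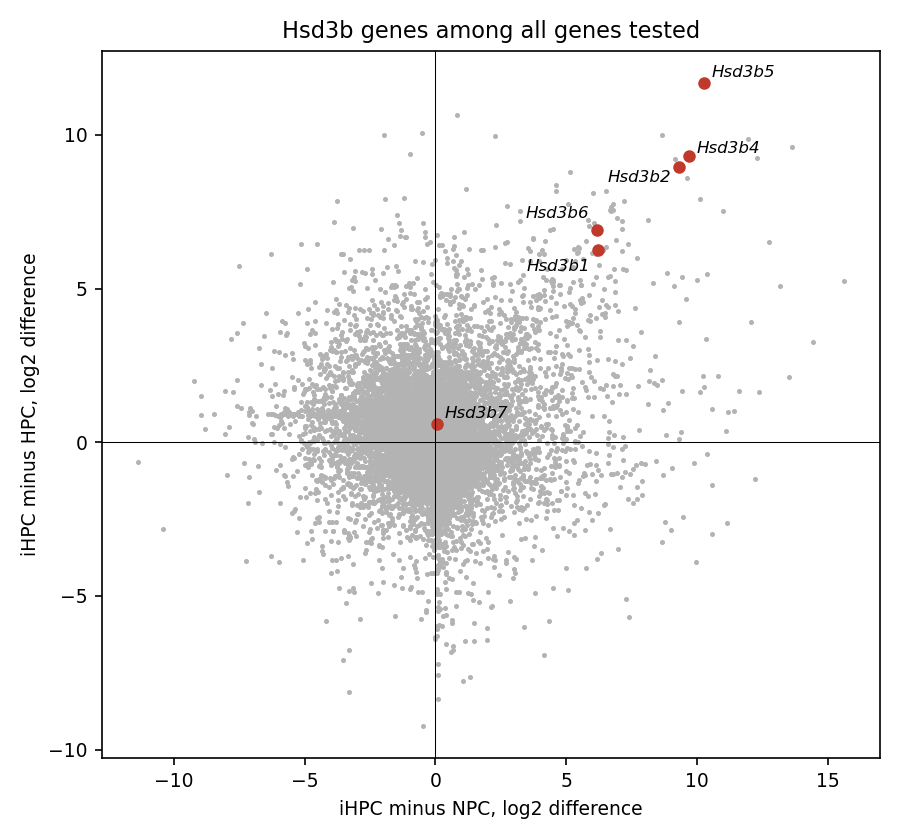
Difference of mean level between iHPC and HPC (y axis, log2) against that between iHPC and NPC (x axis, log2) for the 19303 genes tested (grey), with the 6 Hsd3b members that passed the filter in red. Hsd3b1, Hsd3b2, Hsd3b4, Hsd3b5 and Hsd3b6 lie in the upper right corner, Hsd3b5 furthest up at 11.69, and Hsd3b7 near the centre. Values at background are plotted as they stand, and both axes share the iHPC arrays.

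The 2 iHPC arrays lay close together, and the HPC arrays further apart. iHPC 10F minus iHPC 9F was between 0.08 and 0.45 for Hsd3b1, Hsd3b4, Hsd3b5, Hsd3b6 and Hsd3b7, and -0.01 for the Hsd3b2 probe that stands for the gene. HB1 minus HNG2 was 1.83 for Hsd3b4 and 0.38 for Hsd3b7, the members that both lines measured. Scanning took place on the same day for iHPC and NPC, with iHPC 10F and NPC on the same slide. There iHPC 10F exceeded NPC by 9.91 for Hsd3b4, 10.42 for Hsd3b5, 9.31 for Hsd3b2, 6.37 for Hsd3b6 and 6.27 for Hsd3b1, and by 0.12 for Hsd3b7. These values share the NPC array with the differences above. Each HPC array was scanned on a day of its own, so day and cell type cannot be told apart against HPC.

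With normexp background correction, which lifts dim signals, the differences from HPC were smaller: 7.48 for Hsd3b5, 5.36 for Hsd3b2, 3.78 for Hsd3b1 and 2.77 for Hsd3b6, against 8.5 for Hsd3b4, which was measured everywhere. Against NPC they were 6.77 for Hsd3b5, 5.0 for Hsd3b2, 3.23 for Hsd3b1, 2.02 for Hsd3b6 and 8.45 for Hsd3b4. For Hsd3b5, Hsd3b2, Hsd3b1 and Hsd3b6 the normexp values lie below the bounds given above, so those bounds depend on the background correction. With the mean of its 3 probes Hsd3b2 came to 5.81 against HPC and 5.97 against NPC. The direction was kept under all alternatives run for these 5 genes, while for Hsd3b7 the difference ran from 0.36 to 0.79 against HPC and from -0.02 to 0.12 against NPC.

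By position, the high signal in iHPC covered the Hsd3b cluster, apart from Hsd3b3, and was also seen at the next gene, Hao2. In the RefSeq order of assembly GRCm38.p6 the genes run Hsd3b4, Gm10681, Hsd3b5, Hsd3b2, Hsd3b3, Hsd3b6, Hsd3b1 and then Hao2. Of the 16 nearest genes, 8 on each side, 14 had a probe, 1 of them (Tent5c) under an older name, and 11 were tested. Hao2, which encodes a peroxisomal hydroxyacid oxidase of kidney and liver, was at -0.77 and -0.62 in iHPC, -7.99 and -8.46 in HPC and -7.41 in NPC, measured in iHPC alone, so that it passed the filter only through the group where it is high. It was called higher against HPC (at least 48.9-fold, limma adjusted p = 0.0156) and against NPC (at least 29.8-fold, adjusted p = 0.0267), beside 3.54% of genes called higher against HPC, and 2.79% higher and 2.85% lower against NPC. The 10 other neighbours tested were not called in either (3 of them had an unadjusted p under 0.05 against HPC, and 3 against NPC). Without HB1 or HNG2, when the iHPC pair alone set the spread, limma called 6 and 4 neighbours against HPC and 8 and 8 against NPC, so these counts rest on the HPC pair. The call of Hao2 was lost without either iHPC array, where limma called 0 genes and the spread came from the HPC pair alone.

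On the other side of the cluster, beyond Hsd3b4, no gene was called in the fit over all 5 arrays. Phgdh, of serine synthesis, was at 6.69 and 6.51 in iHPC, 6.28 and 6.27 in HPC and 5.13 in NPC. The median difference over the 11 neighbours tested was 0.32 from HPC and 1.09 from NPC, beside 0.05 and 0.03 over all genes tested.

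**Figure D3:**
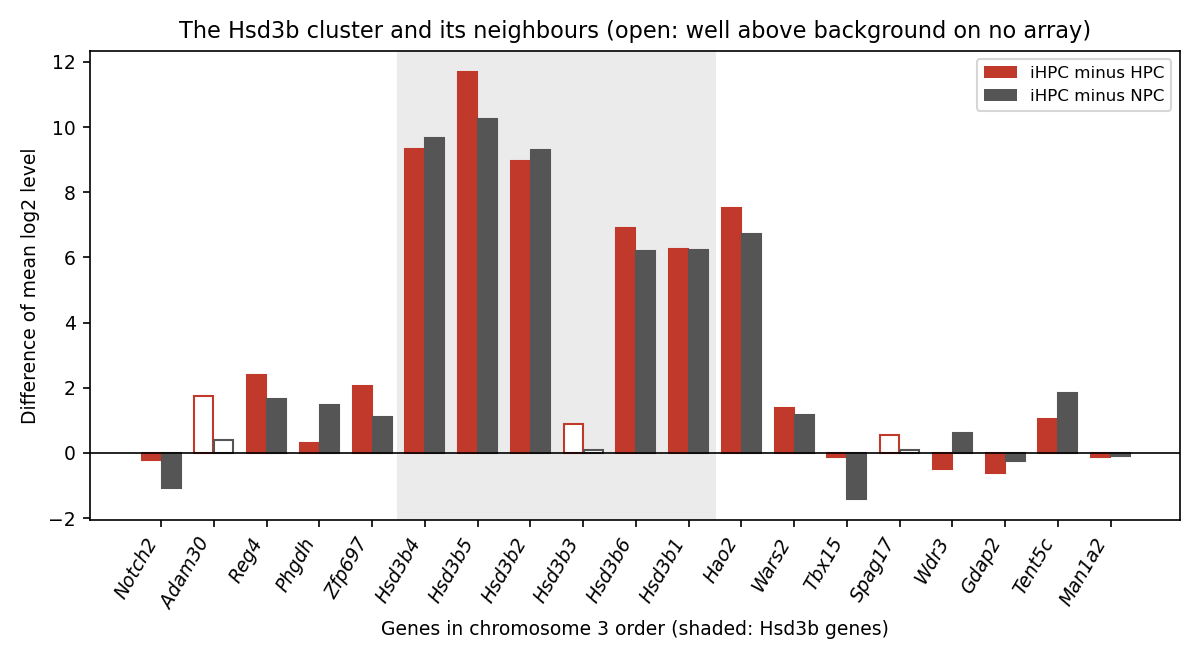
Difference of mean level between iHPC and HPC (red) and between iHPC and NPC (grey) for genes around the Hsd3b cluster, in their order along chromosome 3 (y axis, log2; x axis, genes; open bars, measured on no array; shaded, Hsd3b genes; 2 iHPC, 2 HPC and 1 NPC arrays). Tall bars run from Hsd3b4 to Hao2 with Hsd3b3 as an empty place. Bars take values at background as they stand.

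The genes whose pattern over the 5 arrays was most like that of Hsd3b4 or Hsd3b5 were sought among genes measured on both iHPC arrays and on no other, by the distance between levels centred on each gene's own mean. For Hsd3b4 they included Slc17a1 (distance 0.71), Hsd3b2 (0.89), Cltrn (1.70) and Hsd3b5 (2.48). For Hsd3b5 they included Cltrn (1.96), Slc17a1 (2.61), Hsd3b2 (2.99) and Hgd, of tyrosine breakdown (4.06). Slc17a1, a transporter of phosphate and organic anions, was at 1.96 and 1.68 in iHPC, -6.31 and -8.46 in HPC and -7.33 in NPC. Cltrn, collectrin, a partner of amino acid transporters encoded on chromosome X, was at 0.94 and 1.92 in iHPC, -8.26 and -8.85 in HPC and -7.21 in NPC. Each was at background on the HPC and NPC arrays, so the distances from Hsd3b5 there compare background signals. Hsd3b4 was measured on all 5 arrays, so its distances there set a measured signal against background. It was itself outside the genes searched. The distances are a description over 5 arrays that fall into separate groups.

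Of the other genes of steroid hormone synthesis 1 passed the test against HPC and 0 against NPC. Of 18 listed, 12 were tested, and against HPC 1 rose and 0 fell, with a median difference of -0.06 (0.05 over all genes, of which 5.42% were called). The 1 gene was Akr1c18, which in mice inactivates progesterone. It was at -1.43 and -1.51 in iHPC, -8.30 and -7.07 in HPC, where it was not measured, and -1.85 in NPC, at least 28.6-fold higher in iHPC than in HPC (adjusted p = 0.0237), while its difference from NPC was 0.38 (adjusted p = 0.767). The neural line thus had it already, unlike Hsd3b1, Hsd3b2, Hsd3b5 and Hsd3b6. Against NPC limma called 0 of the 12 (4 had an unadjusted p under 0.05, median 0.64, beside 0.03 over all genes, of which 5.64% were called). Srd5a1, a steroid reductase, was nearest, at 3.57 and 3.46 in iHPC, 2.67 and 3.49 in HPC and 0.42 in NPC (3.09, adjusted p = 0.0507).

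Of the 17 genes of steroid hormone synthesis with a probe, those that could not be tested were measured on 1 array or none, while the others included enzymes at like levels in all lines. Cyp17a1, which makes androgens, was at -1.37 and -1.45 in iHPC, -1.29 and -1.14 in HPC and -1.52 in NPC, measured on all 5 arrays (difference from HPC -0.19, adjusted p = 0.570). Hsd17b1, which activates estrone, was measured on 4 arrays, at -4.37 and -4.47 in iHPC and -4.63 and -5.70 in HPC, and not in NPC. Cyp11a1, which makes pregnenolone from cholesterol, was at -5.76 and -3.02 in iHPC, -8.15 and -8.72 in HPC and -7.65 in NPC, measured on iHPC 10F alone. Cyp21a1 was measured on HB1 alone, and Cyp11b2, Hsd17b3 and Srd5a2 on 0 of 5 arrays. Star, which carries cholesterol into mitochondria, was at -3.57 and -3.73 in iHPC, -3.43 and -3.62 in HPC and -4.42 in NPC, and was measured on all 5. Of 9 markers of adrenal cortex and gonad, 4 (9F) and 5 (10F) were measured in iHPC, 6 and 4 in HPC and 4 in NPC, with median levels of -5.61 and -3.78 in iHPC, -4.80 and -6.37 in HPC and -5.65 in NPC, so that neither separated iHPC from the rest. Lhcgr and Amh were measured on no array. For kidney proximal tubule 4 and 4 of 8 markers were measured in iHPC, 4 and 3 in HPC and 4 in NPC. The median levels were -5.67 and -5.33, -5.68 and -6.51, and -5.91 in the same order. Slc34a1, Slc5a2, Slc5a12 and Kap were measured on no array. Slc22a6 was measured on 4 arrays and Slc22a8 on all 5, and for both the iHPC arrays overlapped the others. The endocytic receptors of the same list were higher on both iHPC arrays than on the others: Lrp2 was at -2.11 and -1.75 in iHPC, -4.45 and -3.79 in HPC and -3.91 in NPC, and Cubn at 2.85 and 2.75 in iHPC, 1.64 and -0.36 in HPC and -1.02 in NPC. Neither was called (adjusted p = 0.0591 and 0.187 against HPC, 0.0934 and 0.123 against NPC), and the part of these markers in the Hsd3b values was not tested. The median difference over the 4 kidney markers tested was 1.48 from HPC and 0.98 from NPC. For trophoblast 4 of 7 were measured on each array, with Tpbpa, Gcm1 and Hand1 on none.

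Of the hydroxysteroid dehydrogenases outside the Hsd3b family, Akr1c18, Hsd17b1 and Hsd17b3 were counted in the hormone synthesis list. There Akr1c18 was called in both comparisons with HPC. Of the 17 others listed 12 were tested. Limma called 0 of them in each comparison, beside 5.42%, 5.64% and 15.7% of all genes, so that over so few genes a count of 0 differs little from the share (4, 0 and 1 had an unadjusted p under 0.05 in iHPC against HPC, iHPC against NPC and HPC against NPC), and the medians were -0.05, -0.02 and 0.27. Akr1c14, which reduces ketosteroids, was at 0.11 and 0.32 in iHPC, -2.48 and -6.54 in HPC and -0.52 in NPC, where the HPC lines lay far apart (difference from HPC 4.72, adjusted p = 0.164). Hsd17b2, which inactivates estradiol and testosterone, was at -5.30 and -5.02 in iHPC, 1.52 and -3.75 in HPC and -7.38 in NPC (difference from HPC -4.05, adjusted p = 0.281). In both genes 1 HPC line carried most of the difference.

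Bile acid genes, the setting in which Hsd3b7 acts, were tested for 13 of 17. Abcb11, the bile salt export pump, rose against both: it was at -2.38 and -2.44 in iHPC, -5.21 and -5.47 in HPC and -5.57 in NPC, 2.93 ± 0.21 (SE) above HPC (adjusted p = 0.0221) and at least 8.96-fold above NPC (adjusted p = 0.0293). It was the only gene of the list called in either comparison, beside 5.42% and 5.64% of all genes. The medians were 0.85 from HPC and 0.73 from NPC. Between HPC and NPC 1 fell, Ch25h, which makes a hydroxycholesterol, at least 40.5-fold lower in HPC (adjusted p = 0.0266), and the median was 0.23 beside -0.03 over all genes. Cyp7a1, the rate-limiting enzyme of the classic pathway, Cyp8b1, and Akr1d1 were measured on 0 of 5 arrays, while Hsd3b7 was measured on all.

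Since Hsd3b5 is a gene of the male liver in adult mice, lists of sex-biased liver genes were set beside it. Of the male-biased genes 8 of 14 were tested. Limma called 0 against HPC and 0 against NPC, beside 5.42% and 5.64% of all genes. Over so few genes a count of 0 differs little from these shares (0 had an unadjusted p under 0.05 in both). The medians were -0.01 and 0.24. Elovl3 and Mup1 were measured on no array, and Ugt2b38 was at -3.42 and -3.89 in iHPC, 0.74 and -3.15 in HPC and -7.87 in NPC (difference from HPC -2.45, adjusted p = 0.358). Between HPC and NPC 0 were called, beside 15.7% of all genes (1 had an unadjusted p under 0.05, median 0.40). Hsd3b5 itself was not in the list.

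Of the female-biased genes 9 of 16 were tested, and 3 rose and 0 fell against HPC as well as against NPC (medians 0.15 and 0.51), where 3.54% and 2.79% of all genes were called higher. They included Hao2, given above, and Fmo2, a flavin monooxygenase that oxidises nitrogen and sulphur compounds. Fmo2 was at -1.85 and -2.18 in iHPC, -6.30 and -5.42 in HPC and -7.12 in NPC, 3.84 ± 0.39 (SE) above HPC (adjusted p = 0.0330) and at least 12.0-fold above NPC (adjusted p = 0.0310). Of the HPC lines only HNG2 measured the Fmo2 probe and NPC did not, so that Fmo2, like Hao2, passed the filter only through iHPC. Hao2, Fmo2 and Abcb11 are thus among the 163 genes (0.844%) called higher in iHPC than in HPC and in NPC. Between HPC and NPC 0 of the list were called by limma, beside 15.7% of all genes (2 had an unadjusted p under 0.05, median 0.30).

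Among 25 regulators known from liver or steroid-making cells, 22 were tested. Against NPC 4 rose and 3 fell (median 0.02, with 2.79% of all genes called higher and 2.85% lower), and those that rose included the nuclear receptors Hnf4a, Nr1h4 and Nr1i2. Hnf4a was at 1.41 and 1.56 in iHPC, 2.60 and 2.02 in HPC and -7.56 in NPC, at least 135-fold above NPC (adjusted p = 0.0264). Hnf4a was measured on both HPC arrays as well. In HPC Hsd3b4 was low, and Hsd3b1, Hsd3b2, Hsd3b5 and Hsd3b6 were at background on the probes that stand for them. Any part of Hnf4a in the Hsd3b values was not tested. The bile acid receptor Nr1h4 was at least 226-fold above NPC (adjusted p = 0.0284) and the xenobiotic receptor Nr1i2 at least 4.81-fold (adjusted p = 0.0340). Those that fell included Foxa2 and Cebpa.

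Against HPC 1 regulator was called higher and 5 fell (3.54% of all genes were called higher and 1.88% lower), with a median of -0.71. Gata6, a zinc finger factor of endoderm, was at -3.46 and -3.78 in iHPC, 3.48 and 2.21 in HPC and -5.11 in NPC (difference from HPC -6.47, SE 0.52, adjusted p = 0.0245). Foxa2, a forkhead factor of endoderm, was at 0.07 and -0.36 in iHPC, 4.91 and 4.56 in HPC and 2.98 in NPC (difference from HPC -4.88, SE 0.28, adjusted p = 0.0183). Foxa3 was at least 13.3-fold lower in iHPC than in HPC (adjusted p = 0.0451), and Cebpa fell by 2.06 (adjusted p = 0.0353). Cebpa was named after its values were seen. Nr5a1, the factor that drives steroid-making genes in adrenal and gonad, was at -2.35 and -3.17 in iHPC, -4.25 and -4.03 in HPC and -2.88 in NPC and was not called. Whether any of these probes also detects a retroviral transcript is not given in the sources used here.

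Between HPC and NPC 5 regulators rose, among them Nr1h4 (at least 477-fold), Hnf4a (at least 239-fold) and Gata6 (7.96), and 2 fell (median 0.31). Of all genes 6.68% were called higher in HPC and 8.98% lower. Of the steroid hormone genes Srd5a1 rose by 2.66 and Akr1c18 was at least 22-fold lower in HPC (median 0.66). Hsd3b4, by contrast, averaged -3.29 in HPC and was at -3.66 in NPC. Every call on a named gene given here was lost without either iHPC array, where limma called 0 genes in each of the 3 comparisons.

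**Figure D4:**
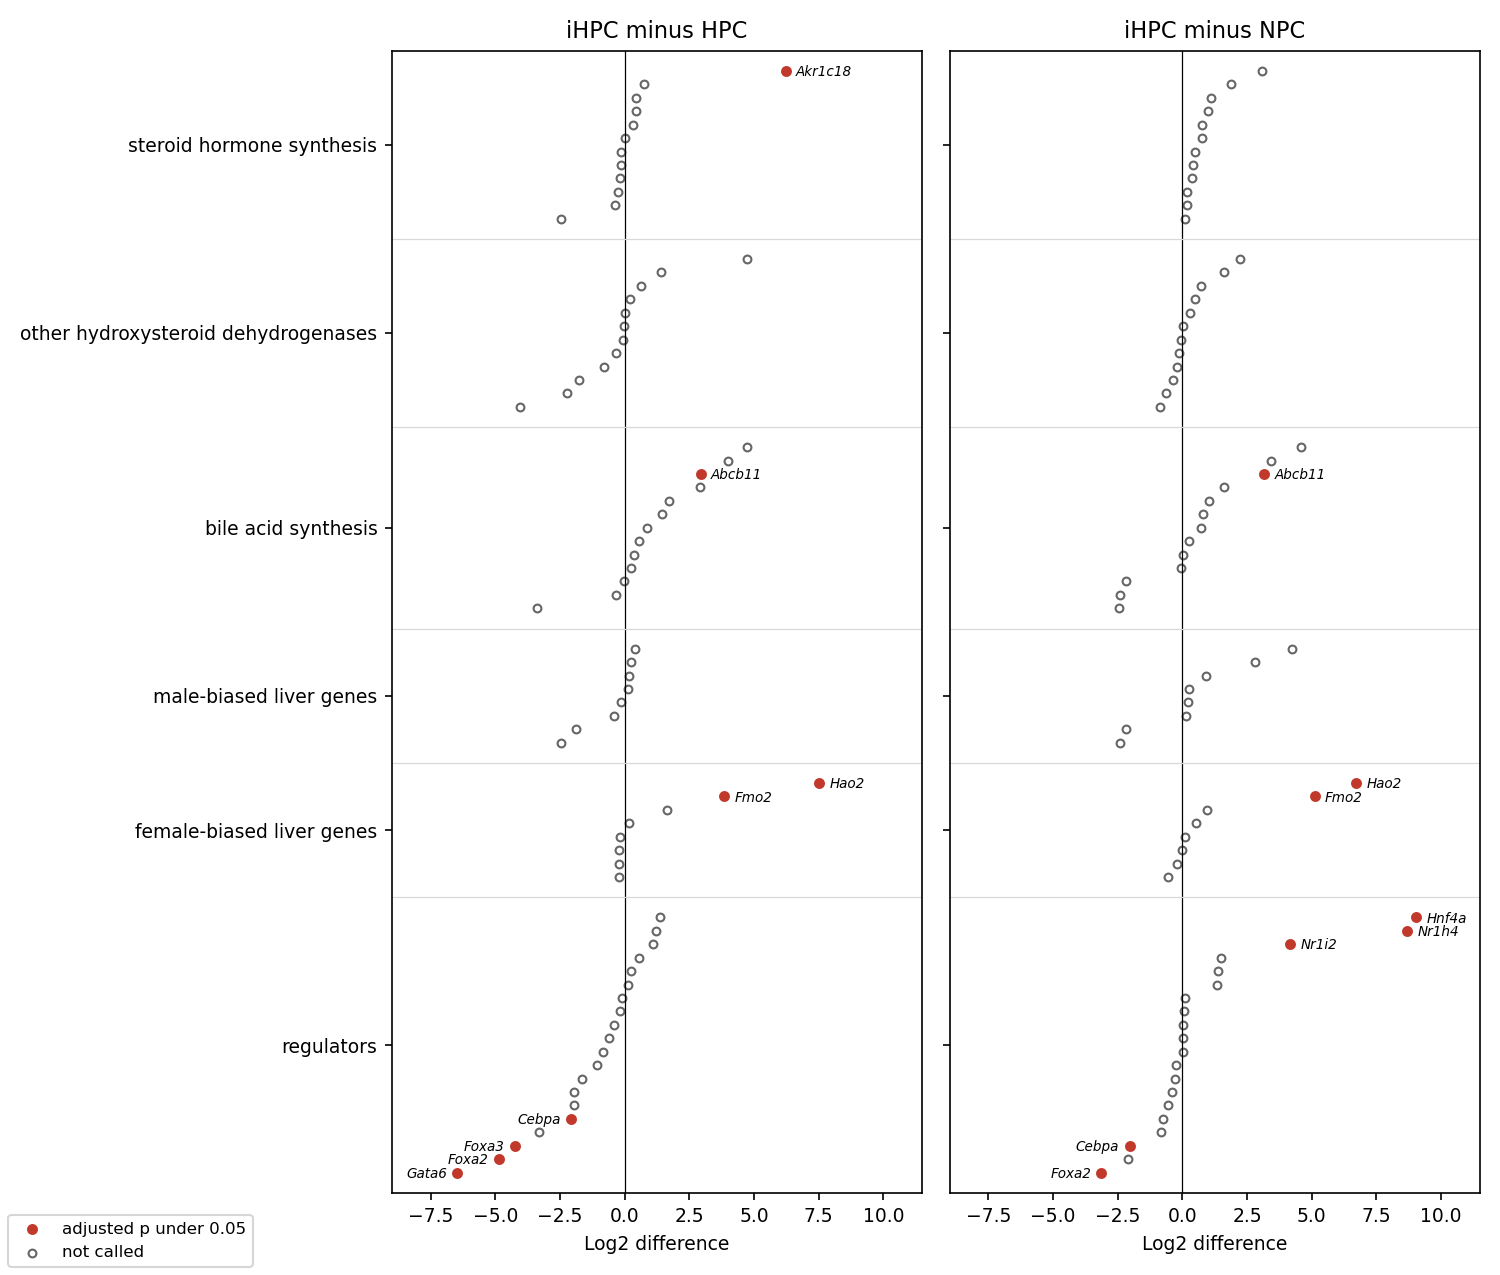
Log2 difference of tested genes of the 6 lists between iHPC and HPC (left) and between iHPC and NPC (right), 1 point per gene, sorted within its list; filled red points have a limma adjusted p under 0.05 over all genes tested. The steroid hormone and dehydrogenase lists have Akr1c18 as the single call, Hao2 and Fmo2 of the female-biased list are called in both panels, and the male-biased list has 0 calls. Values at background are plotted as they stand.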

How the data were processed

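The deposited values are spot intensities of 5 Agilent arrays with 1 dye. The processed intensity came from Agilent Feature Extraction (10.7.3.1), per the file headers. The deposited series matrix equalled it on 100% of spots. From it log2 was taken and the array's 75th percentile (590.3 to 1074 in signal units) subtracted; no depth applies to arrays, and their number limits the precision. Controls and spots with an outlier flag were dropped, and the spots of each probe averaged. Of 41149 probes with a value on all arrays, 22933 were named through RefSeq accessions (GRCm38.p6), 6663 by symbol, 3 by an older name, and 11550 kept the file's name, which can be old. The probe with the highest mean stood for a gene, which gave 19303 genes after the filter on dim probes.

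Groups follow the labelled cell type. limma 3.58.1 in R 4.3.3 (lmFit, eBayes, two-sided, Benjamini-Hochberg over all genes) fitted 3 groups to 5 arrays, with 2 residual degrees of freedom; the lone NPC array was assumed to vary like the pairs. The fit was tested on simulated data. Promoters were aligned locally with Biopython 1.88, and figures drawn with matplotlib 3.10.9. Members and lists were chosen with earlier results of these data known. Named genes are the members, up to 4 of each list per comparison (called ones first, by size), the neighbours and Afp; not all are reported. Star, Nr5a1, Cyp17a1, Hsd17b1, markers, list genes that could not be tested, and, beyond the 4, Foxa2 (against NPC) and Cebpa were named after their values were seen. Counts and medians cover whole lists, while some of their genes, and some neighbours and genes of like pattern, are not reported or drawn here. Alternatives were other scalings, filters, probe summaries, variance models, the arrays of the scan day that iHPC and NPC shared, and fits without 1 array.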

Additional observations from a re-analysis of the deposited data

How the results depend on the processing

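With 2, 2 and 1 arrays and 2 residual degrees of freedom, counts of calls depend on which pair gives the spread. iHPC against HPC gave 1046 called genes (11 members of the lists), 2118 with normexp, 460 (7) without the filter on dim probes, 617 (3) among probes measured on all arrays, and 0 to 6988 (0 to 35) when 1 array was left out. iHPC against NPC gave 1089 (11), 305 (5) without the filter, 492 (3) among probes measured on all arrays, 6752 (31) with scan day as a block, and 0 to 6752 (0 to 31) when 1 array was left out. HPC against NPC gave 3024 (10), 4747 with normexp, 1643 without the filter, 6 list members among probes measured on all arrays, and 0 to 9760 (0 to 42) when 1 array was left out. Without iHPC replicate 1 or 2 limma called 0 genes in each comparison, while 1901 and 1934 (iHPC against HPC), 2123 and 2120 (iHPC against NPC) and 3889 (HPC against NPC) had an unadjusted p under 0.05. Without HPC replicate 1 or 2 it called 6988 and 6963, 6752 and 6752, and 9543 and 9760. The cause was not tested.

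The split of calls into higher and lower was 683 and 363 for iHPC against HPC, 687 and 623 with median centring and 347 and 113 without the filter. For HPC against NPC it was 1290 and 1734, and 1761 and 1496 with median centring, where the median over all genes was 0.26 in place of -0.03 (and -0.19 in place of 0.05 for iHPC against HPC). For iHPC against NPC it was 539 and 550, and 187 and 118 without the filter. Of 254 alternative values for 24 calls on named genes, 196 kept the call, 58 lost it and 0 changed sign. The Hsd3b5 difference from HPC ran from 7.48 to 12.31 and that of Hsd3b4 from 8.40 to 10.23. Slide as a random block was not run, because 1 of 4 slides held more than 1 array and the correlation could not be estimated. No paired analysis was possible, because each line had 1 array and both iHPC lines share the single array of the parental NPC line. Signals under the lowest level well above background give bounds only.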
